A study of Populus euphratica with 12 samples.

Results

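Broad-ovate (Bo) leaves were compared with lanceolate (La) leaves of the desert poplar *Populus euphratica*, a tree on which leaves of different outline are borne at different ages. The comparison took 6 of the 12 libraries of the series, 3 from Bo leaves of trees over 20 years old and 3 from La leaves of trees 4 to 6 years old. The other libraries came from ovate (Ov) leaves of trees 8 to 12 years old and linear (Li) leaves of trees 0 to 3 years old. All were juvenile leaves, the second from the shoot tip, sampled in spring at 1 place in Xinjiang. Leaf shape and tree age changed together, so that effects of shape and of age cannot be told apart. The labels number 3 libraries per leaf shape and do not say whether these came from separate trees, so that the p-values measure the spread between these samples.

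Messenger RNAs, long noncoding RNAs (lncRNAs) and circular RNAs (circRNAs) were measured in the same ribosome-depleted, strand-specific libraries. mRNAs and lncRNAs were given as FPKM, fragments scaled to transcript length and library size. circRNAs were given as RPM, back-spliced junction reads scaled to library size. An mRNA or lncRNA was kept if it averaged 0.5 FPKM or more across these 6 libraries, and a circRNA if it was above 0 in at least 2 of them. This kept 32418 of 49676 mRNAs, 1413 of 4460 lncRNAs and 231 of 1149 circRNAs. Each RNA was tested with limma on log2(FPKM + 1), two-sided, with Benjamini-Hochberg adjustment within its class. Differences are Bo minus La on that scale, so that a difference understates the change of a low RNA and is not a fold.

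In poplars, as in other woody plants, a young tree passes through a juvenile phase before an adult phase in which it can flower. Squamosa promoter-binding-like (SPL) transcription factors are known in Arabidopsis to advance this change of phase. The width of a blade depends on how long its cells divide, on how far they expand and on the boundary between its upper and lower sides, which are set by factors such as AGO7, WOX1 and the YABBY and KANADI proteins in Arabidopsis. lncRNAs are transcripts without a long reading frame, and circRNAs are closed loops made when a downstream splice site joins an upstream one.

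The 3 Bo libraries were not equally alike. Over the mRNAs tested, Bo1 and Bo2 had a rank correlation of 0.949, while Bo3 had 0.817 with Bo1 and 0.846 with Bo2. The 9 pairs of a Bo and a La library lay between 0.839 and 0.883, and the La pairs between 0.861 and 0.914. These are correlations across genes, which are not independent replicates. Bo3 therefore stood as far from the other Bo libraries as La libraries did. Markers of leaf tissue were present in every library. The 10 leaf transcripts, of Rubisco, its activase, the photosystems and their light-harvesting proteins, summed to 1949 to 2933 FPKM in Bo libraries and 3015 to 5341 FPKM in La libraries. The study had kept these 10 because their means moved steadily from Li to Bo in these same libraries. The direction of their sum is therefore not independent evidence. Photosystem and light-harvesting transcripts chosen by gene symbol summed to 2722.5 to 3676 FPKM in Bo and 3069 to 4162 FPKM in La, which overlapped. Bo3 shared features with the third library of La and of Ov. A leaf marker, the Rubisco small chain transcript XM_011017408.1, had 1.59, under 0.001 and 499.9 FPKM in Bo and under 0.001, under 0.001 and 589 FPKM in La, with 549 FPKM in Ov3 and at most 0.126 FPKM in Ov1 and Ov2. In Li it was not limited to the third library, with 297, 2516 and 2362 FPKM in Li1, Li2 and Li3. The part of this feature in the results was not tested.

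Bo leaves differed from La leaves in 60 mRNAs, 0.185% of those tested. Of these, 48 (0.148%) were higher in Bo and 12 (0.037%) were lower in Bo. Before adjustment, 2751 mRNAs (8.49% of those tested) had p under 0.05, with 1700 higher (5.24%) and 1051 lower (3.24%). The median difference over all mRNAs tested was 0.06. The 3 Bo libraries all lay above the 3 La libraries for 2526 mRNAs (7.79%) and all lay below them for 1484 (4.58%).

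**Figure D1:**
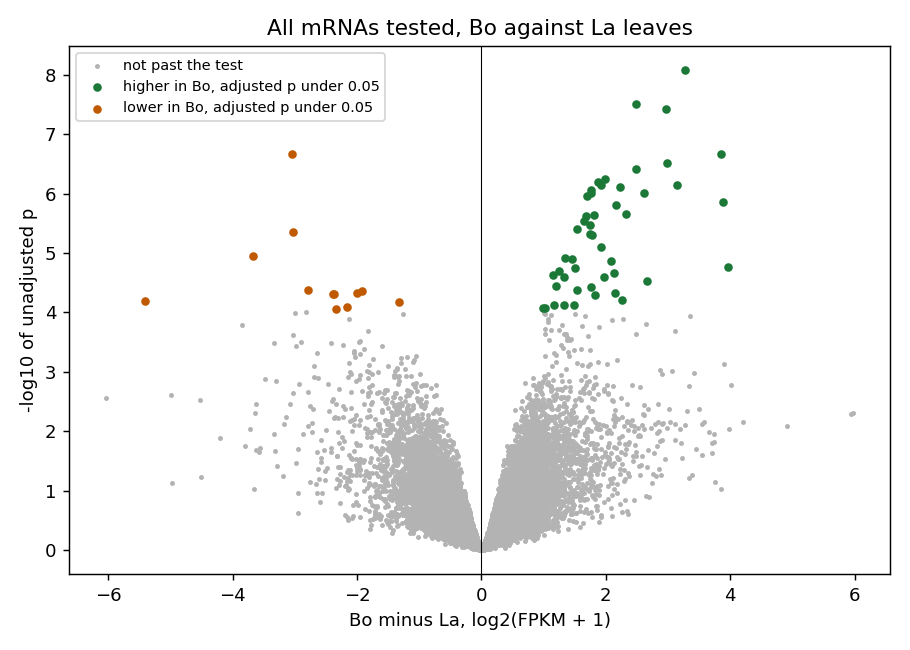
Each point is 1 of the 32418 mRNAs tested, with the Bo minus La difference on the log2(FPKM + 1) scale on the horizontal axis and −log10 of the unadjusted limma p on the vertical axis. The 48 mRNAs higher in Bo are green and the 12 lower in Bo are orange, and grey points did not pass an adjusted p of 0.05.

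Most of the mRNAs that rose in Bo leaves were near 0 in La leaves. Such an mRNA could enter the comparison only through its Bo libraries, since a mean of 0.5 FPKM over both groups then asks for a Bo mean of about 1 FPKM, so the filter sets the lower end of the Bo levels. Of the 48, 42 stayed under 0.5 FPKM in every La library, and 27 stayed under 0.5 FPKM in every La, Ov and Li library. The Bo means of the 48 ran from 1.01 to 20.7 FPKM, with a median of 3.16 FPKM, against a median La mean of 0.0452 FPKM. These 27 were chosen for low levels outside Bo, so that their low sums there are a description of the choice. They summed to 77.4, 66.3 and 63.2 FPKM in the Bo libraries, against 1.58, 0.93 and 1.37 FPKM in the La libraries. They summed to 4.97, 1.17 and 3.82 FPKM in the Ov libraries and to between 0.817 and 1.19 FPKM in the Li libraries. For 46 of the 48, every Bo library lay above all 9 other libraries. The share of all mRNAs tested with this pattern is not given here. The fit took its spread from all 12 libraries, so that low and even levels in Ov and Li make a call more likely. In leaf tissue taken whole, fewer cells of a type and less RNA per cell cannot be told apart.

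**Figure D2:**
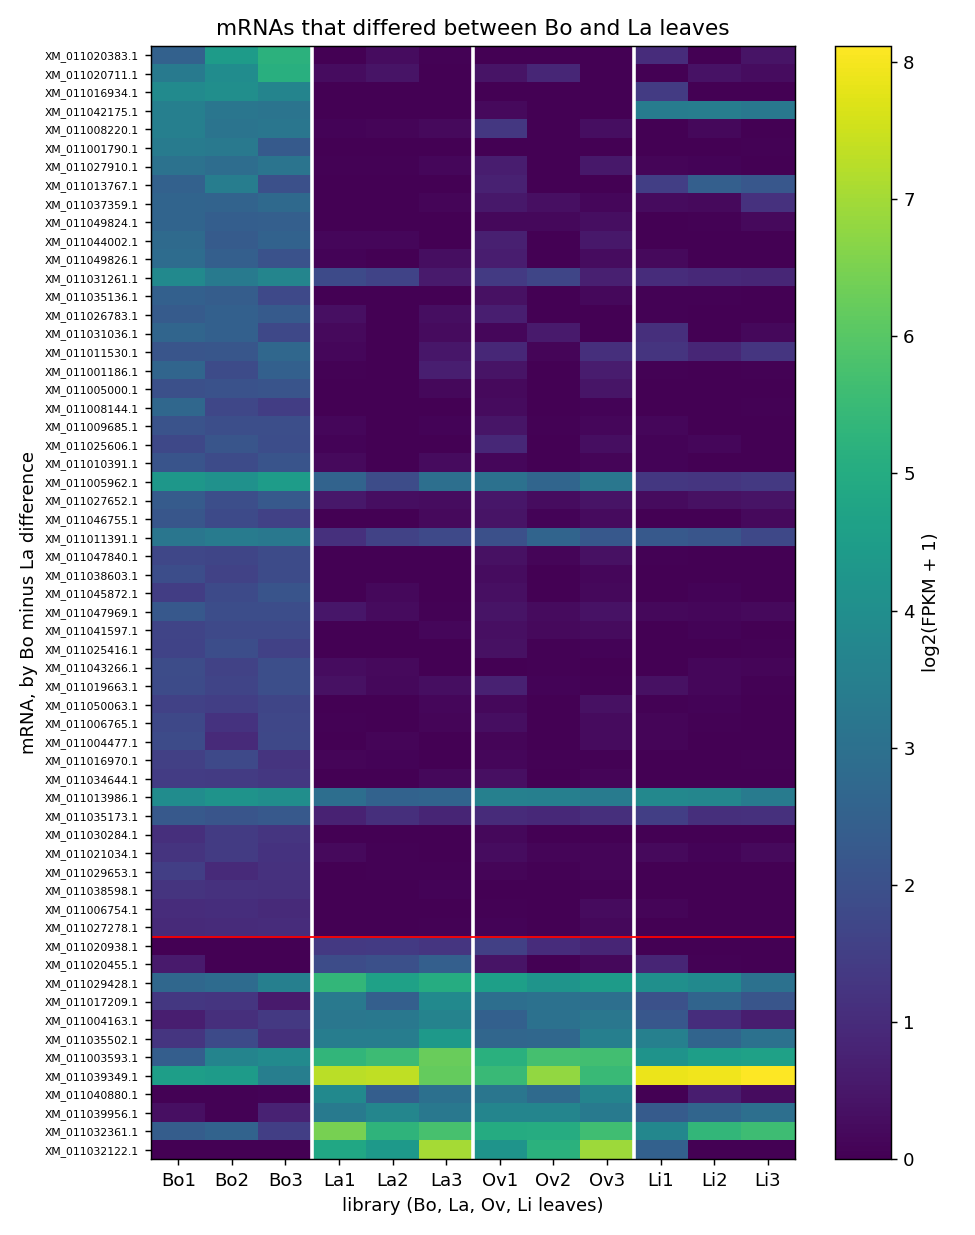
The 60 mRNAs that differed, 1 per row and ordered by the Bo minus La difference, in the 3 Bo, 3 La, 3 Ov and 3 Li libraries. Colour gives log2(FPKM + 1) and the red line separates mRNAs higher in Bo from those lower in Bo. Most of the upper rows are dark in the La, Ov and Li columns, XM_011042175.1 is bright in Bo and in Li, and most of the lower rows are bright in La and Ov.

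Among the 15 mRNAs with the largest rise, XM_011020383.1 had 4.75, 21.0 and 36.2 FPKM in Bo1, Bo2 and Bo3, against under 0.001, 0.200 and 0.0420 FPKM in La1, La2 and La3. XM_011020711.1 had 8.89, 14.4 and 34.0 FPKM in the Bo libraries and 0.216, 0.347 and 0 FPKM in the La libraries. XM_011016934.1 had 13.8, 15.03 and 11.8 FPKM in the Bo libraries and under 0.001 FPKM in each La library. In all 3 the groups did not overlap, but the first pair were uneven among Bo libraries while the third was even. Their differences were 3.96 ± 0.55 (SE, adjusted p = 0.0168), 3.89 ± 0.41 (adjusted p = 0.00259) and 3.86 ± 0.34 (adjusted p = 0.00141). The sources used here named no product for these 3 genes.

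XM_011027910.1 was even across the Bo libraries, which had 7.35, 6.49 and 7.77 FPKM in the Bo libraries and 0.0242, 0.0255 and 0.104 FPKM of it in the La libraries (difference 2.96 ± 0.22, adjusted p = 0.000406). XM_011049824.1 behaved in the same way, with 5.09, 4.36 and 4.45 FPKM in the Bo libraries and 0, 0 and under 0.001 FPKM in the La libraries (2.49 ± 0.18, adjusted p = 0.000406). XM_011008220.1 had 10.3, 7.63 and 8.19 FPKM in Bo, against 0.0660, 0.0694 and 0.144 FPKM in La (3.14 ± 0.31, adjusted p = 0.00209). In these 3 the lowest Bo library was far above the highest La library. XM_011037359.1, XM_011044002.1, XM_011049826.1, XM_011035136.1 and XM_011026783.1 followed the same pattern, with Bo libraries between 2.49 and 6.27 FPKM and La libraries between 0 and 0.272 FPKM. Their differences ran from 2.16 to 2.61, with adjusted p between 0.00175 and 0.00365. XM_011031261.1 was the 1 of the 15 with La levels above 0.5 FPKM in all La libraries, at 13.4, 8.86 and 11.9 FPKM in Bo and 2.55, 2.08 and 0.514 FPKM in La (2.26 ± 0.36, adjusted p = 0.0384).

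Several raised mRNAs had a level in Li leaves as well. XM_011042175.1 had 10.3, 8.14 and 7.71 FPKM in the Bo libraries, against under 0.001, under 0.001 and 0.00601 FPKM in the La libraries (3.27 ± 0.21, adjusted p = 0.000269). The Li libraries had 9.53, 9.89 and 8.41 FPKM of it and no Ov library had more than 0.159 FPKM. XM_011013767.1 had 4.75, 9.95 and 2.97 FPKM in Bo and under 0.001 FPKM in each La library (2.66 ± 0.39, adjusted p = 0.0244), with 1.85, 4.46 and 3.62 FPKM in Li. So 2 of the 48 overlapped between Bo and Li, while none overlapped between Bo and Ov.

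Of the 48 raised mRNAs, 5 had a product name and 2 more a gene symbol taken from Arabidopsis. Named here after their values were seen, those outside the 15 were as follows. The probable pectate lyase P59 transcript XM_011027652.1, of a family of enzymes that cut pectin in the cell wall, had 4.02, 2.86 and 3.85 FPKM in Bo and 0.430, 0.237 and 0.213 FPKM in La (1.82 ± 0.20, adjusted p = 0.00365). Beta-galactosidase 13-like XM_011047969.1, of a family that removes galactose from cell wall sugars, had 3.67, 2.76 and 2.76 FPKM in Bo and 0.417, 0.185 and 0.0430 FPKM in La (1.75 ± 0.20, adjusted p = 0.00481). For both, all Bo libraries were well above all La libraries. GH9A4 XM_011021034.1, an endoglucanase of the cellulase family, had 1.34, 1.64 and 1.26 FPKM in Bo and 0.141, 0.0250 and 0 FPKM in La (1.19 ± 0.18, adjusted p = 0.0284).

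A plasma membrane-type ATPase 8-like transcript, XM_011019663.1, encoding a relative of the proton pumps that energise the cell membrane, had 2.60, 2.16 and 2.90 FPKM in Bo and 0.288, 0.131 and 0.244 FPKM in La (1.54 ± 0.24, adjusted p = 0.0312). ABC transporter G family member 23-like XM_011005962.1 had 18.5, 16.3 and 21.3 FPKM in Bo and 4.97, 2.66 and 6.80 FPKM in La (1.82 ± 0.29, adjusted p = 0.0330). It was also among the few raised mRNAs with a clear La level. ATVEX1 XM_011030284.1, known in Arabidopsis as a sugar transporter gene of the vegetative cell of pollen, had 1.13, 1.68 and 1.38 FPKM in Bo and was listed at 0 in every La library (1.25 ± 0.18, adjusted p = 0.0183).

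Because ATVEX1 and pectate lyase P59 are flower or pollen genes in other plants, the levels of pollen and flower markers were set beside these results. Of the 5 product-named flower and pollen markers, 2 passed the filter and 1, pectate lyase P59, was higher in Bo. P59 was among the genes that led to this look, so its call here adds no evidence of its own. The study had kept all 5 for means that moved steadily from Li to Bo, so their direction is not independent either. The 5 summed to 5.14, 4.50 and 5.20 FPKM in the Bo libraries and 3.59, 0.958 and 1.71 FPKM in the La libraries. They summed to 1.63, 0.727 and 2.64 FPKM in the Ov libraries and 2.86, 4.89 and 4.94 FPKM in the Li libraries. The sum was thus not particular to Bo, but its members went different ways, as follows. The pollen-specific leucine-rich repeat extensin 3 transcript, under the filter, had 0.470, 0.843 and 0.964 FPKM in Bo and 0.0186, 0.0691 and 0.113 FPKM in La. The exopolygalacturonase clone GBGA483-like transcript, also under the filter, had 0.400, 0.418 and 0.333 FPKM in Bo and 0.0176, 0.0373 and 0.0565 FPKM in La. Both were low in all libraries but did not overlap between the groups. In Ov and Li libraries extensin 3 had at most 0.125 FPKM, the GBGA483-like transcript at most 0.213 FPKM and P59 at most 0.409 FPKM. Each was lower there than in any Bo library. DEFICIENS-like, a gene of petal and stamen identity, lay the other way, with 0.249, 0.378 and 0.0503 FPKM in Bo and 3.07, 0.614 and 1.33 FPKM in La (−1.03 ± 0.37, adjusted p = 0.475). The exopolygalacturonase clone GBGE184-like transcript, under the filter, had under 0.001 FPKM in each Bo library and at most 0.0513 FPKM in La. It had 2.59 and 2.17 FPKM in Li2 and Li3.

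A wider list of 24 genes that carry symbols of Arabidopsis pollen and pollen tube genes had 37 transcripts, of which 16 passed the filter. Of the 16, 1 was called higher in Bo, against 0.148% of all mRNAs tested, and none lower. The 1 called was ATVEX1, which had led to this look, so its call adds no evidence of its own. The median difference of the 16 was 0.11, against 0.06 over all mRNAs. The list summed to between 149 and 180 FPKM in Bo libraries and between 151 and 225 FPKM in La libraries. Much of the sum came from ACA9, a calcium pump gene, whose transcript XM_011034729.1 had 54.5, 73.7 and 51.9 FPKM in Bo and 127, 81.4 and 63.7 FPKM in La (−0.54 ± 0.25, adjusted p = 0.594). Of the 16 tested, 10 had a positive difference, against 56.5% of all mRNAs tested. Of the 21 under the filter, 16 had a higher mean in Bo, 4 a lower mean in Bo, and 1 (MYB101) was at 0 in both. For 5 of the 21 (transcripts of AGL30, GEX2, EXO70C2, CPK17 and PLIM2B) all Bo libraries lay above all La libraries, and for 0 of the 21 all lay below. The same shares over all mRNAs under the filter are not given here, so these counts of the 21 have no baseline. Of the 37 transcripts, 1 (MYB101) was listed at 0 in all Bo and all La libraries, and a further 3 (ATVEX1, LARP6C and ANN5) were listed at 0 in all La libraries. FLA14, an arabinogalactan protein gene of Arabidopsis pollen, had 1.20, 1.10 and 1.57 FPKM in Bo and 0, 0 and 0.260 FPKM in La (1.08 ± 0.19, adjusted p = 0.0589). CPK17, a pollen tube kinase gene in Arabidopsis, had 0.317, 0.166 and 0.785 FPKM in Bo and under 0.001 FPKM in each La library. PLIM2B, of a pollen actin-bundling protein, had 0.468, 0.235 and 0.281 FPKM in Bo and under 0.001 FPKM in each La library. CPK17 and PLIM2B had the highest Bo means of the 5 and, being under the filter, were not tested, and all 5 and the genes listed at 0 were named after their values were seen. Of the 21 genes of anther, tapetum and meiosis, 9 of 30 transcripts passed the filter and none was called, with a median of 0.08. Their sum was 74.0 to 95.4 FPKM in Bo and 72.8 to 86.2 FPKM in La. The part of pollen or flower tissue in the result was not tested.

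The 12 mRNAs that fell in Bo leaves had La means from 1.51 to 129 FPKM. Their median La mean was 11.6 FPKM, against a median Bo mean of 1.11 FPKM. For 11 of the 12 every Bo library also lay below every Ov library, and for 6 of the 12 it lay below every Li library. The shares of all mRNAs tested with these patterns are not given either.

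XM_011032122.1 showed the largest fall, with under 0.001 FPKM in each Bo library and 27.8, 19.5 and 128 FPKM in La1, La2 and La3 (−5.40 ± 0.87, adjusted p = 0.0399). Its levels were 17.5, 35.5 and 120 FPKM in Ov, and it was at 4.77 FPKM in Li1 and under 0.001 FPKM in the other 2 Li libraries. XM_011032361.1 had 4.26, 5.03 and 1.84 FPKM in Bo and 86.2, 38.1 and 52.8 FPKM in La (−3.66 ± 0.49, adjusted p = 0.0128). In both, La libraries varied among themselves but none came near a Bo library. XM_011039956.1 was steadier, with 0.255, 0.0430 and 0.719 FPKM in Bo and 9.14, 12.3 and 8.44 FPKM in La (−3.05 ± 0.27, adjusted p = 0.00141). XM_011020938.1 was under 0.001 FPKM in every Bo and every Li library and had 1.53, 1.62 and 1.38 FPKM in La (−1.33 ± 0.21, adjusted p = 0.0410).

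PRXR1, peroxidase 42, was the most abundant of the 12. Class III peroxidases such as this oxidise phenolic compounds with hydrogen peroxide in the cell wall. Its transcript XM_011039349.1 had 22.3, 20.8 and 10.1 FPKM in Bo and 155, 159 and 72.0 FPKM in La (−2.78 ± 0.43, adjusted p = 0.0312). The Ov libraries had 44.2, 110 and 44.1 FPKM and the Li libraries 235, 242 and 276 FPKM, so that the Bo libraries were the lowest of the 4 leaf shapes. XM_011003593.1, XM_011029428.1, XM_011035502.1, XM_011004163.1 and XM_011017209.1 fell by 1.997 to 2.39, with adjusted p between 0.0326 and 0.0480. XM_011003593.1 was the most abundant of these 5, at 4.41, 11.6 and 13.9 FPKM in Bo and 39.8, 45.9 and 75.1 FPKM in La. For XM_011029428.1 the Bo libraries had 5.58, 6.10 and 10.3 FPKM and the La libraries 40.7, 23.8 and 31.3 FPKM. All 5 had Bo libraries wholly below La libraries, and none has a named product.

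FPKM summed over all transcripts of a gene did not pass the test for 6 of the 60 genes, although 1 of their transcripts did. Most of the 60 genes have a single listed transcript, so that their sum is that transcript. The 6 are therefore drawn only from the genes with more than 1 transcript. A sum that misses the threshold does not show that the gene was unchanged. The WDR12 homolog, a ribosome biogenesis protein, has 2 transcripts. XM_011001790.1 had 9.45, 8.63 and 3.89 FPKM in Bo and under 0.001, 0.0101 and under 0.001 FPKM in La (2.98 ± 0.27, adjusted p = 0.00164), while XM_011001789.1 had 11.5, 8.19 and 8.05 FPKM in Bo and 21.9, 18.6 and 7.80 FPKM in La. Their sum was 21.0, 16.8 and 11.9 FPKM in Bo and 21.9, 18.6 and 7.80 FPKM in La, which overlapped (0.12, adjusted p = 0.977).

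In the TIFY 6B-like gene the transcript that passed the test was lower in Bo. TIFY proteins of this kind are repressors of jasmonate signalling in Arabidopsis. XM_011040880.1 had 0.0272, 0.0357 and 0.0557 FPKM in Bo and 13.4, 4.37 and 7.01 FPKM in La (−3.04 ± 0.36, adjusted p = 0.00568), while XM_011040882.1 had 15.7, 20.4 and 8.90 FPKM in Bo and 0.00236, 1.42 and 7.82 FPKM in La (2.46, adjusted p = 0.404). The summed gene had 16.4, 20.9 and 9.25 FPKM in Bo and 13.7, 6.03 and 16.3 FPKM in La (0.37, adjusted p = 0.914). XM_011040880.1 was also near absent from Li libraries, at 0.573 FPKM or less, and was at 6.02 to 11.6 FPKM in Ov.

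In LOC105136723 and LOC105114741 the transcript that passed was higher in Bo. For LOC105136723 the raised XM_011042175.1 was accompanied by 7.58, 4.61 and 5.66 FPKM of XM_011042174.1 in Bo, against 17.8, 16.9 and 14.01 FPKM in La (−1.32, adjusted p = 0.252). The gene summed to 21.2, 15.2 and 14.9 FPKM in Bo and 20.4, 21.9 and 16.7 FPKM in La (−0.20, adjusted p = 0.861). For LOC105114741, XM_011011391.1 had 8.17, 9.38 and 8.55 FPKM in Bo and 1.18, 2.05 and 2.46 FPKM in La (1.77 ± 0.27, adjusted p = 0.0284), and the gene summed to 20.4, 22.1 and 23.9 FPKM in Bo and 19.1, 20.2 and 19.9 FPKM in La (0.15, adjusted p = 0.816), where the lowest Bo sum was just above the highest La sum. The last pair were LOC105121714, whose XM_011020455.1 had 0.501, under 0.001 and under 0.001 FPKM in Bo and 2.74, 2.93 and 4.54 FPKM in La (−1.92 ± 0.30, adjusted p = 0.0319), and LOC105129086, whose XM_011031036.1 had 5.32, 4.59 and 2.41 FPKM in Bo and 0.165, under 0.001 and 0.170 FPKM in La (2.16 ± 0.33, adjusted p = 0.0326). LOC105121714 summed to 6.77, 9.99 and 11.7 FPKM in Bo and 7.41, 8.10 and 9.05 FPKM in La, which overlapped (0.17, adjusted p = 0.890). LOC105129086 summed to 15.7, 16.6 and 14.3 FPKM in Bo and 11.1, 4.14 and 4.60 FPKM in La, which did not overlap (1.23, adjusted p = 0.269). Its other transcript, XM_011031027.1, also had a positive difference (0.84, adjusted p = 0.509). Reads shared by transcripts of 1 gene were divided by the authors' abundance estimate, so that the split between transcripts is less certain than the sum.

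**Figure D3:**
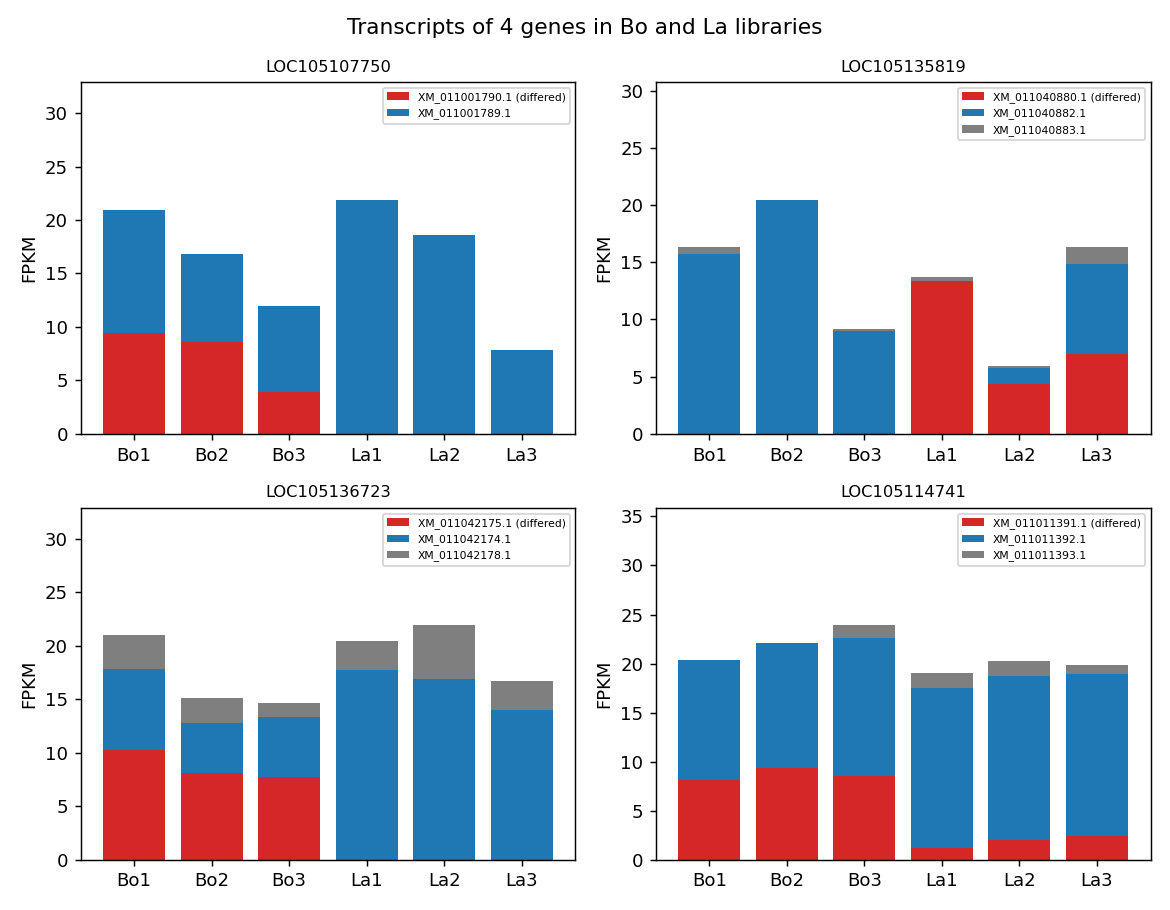
Stacked bars of FPKM, from 0, for the transcripts of 4 genes in the 3 Bo and 3 La libraries, without transcripts under 0.5 FPKM in all 6; red is the transcript that differed. The differences of the summed genes are 0.12, −0.20, 0.15 and 0.37 in the order named here, and the red part is seen mostly in Bo libraries for LOC105107750 (the WDR12 homolog), LOC105136723 and LOC105114741, and mostly in La libraries for LOC105135819 (TIFY 6B-like).

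Gene groups were drawn both from product names in a transcript list of the study and from RefSeq gene symbols of Arabidopsis genes. The product-named members were kept by the study because their means moved steadily from Li to Bo in these same libraries, so that their direction is not independent evidence. Over all mRNAs tested, 56.5% had a positive difference. Of the 8 tested SPL transcripts all 8 had a positive difference, with a median of 0.71 against 0.06 over all mRNAs, and none was called. SPL9, the transcript XM_011034944.1, had 29.7, 24.7 and 24.2 FPKM in Bo and 9.44, 4.82 and 6.58 FPKM in La (1.81 ± 0.44, adjusted p = 0.260). SPL16, XM_011022481.1, had 24.1, 28.2 and 18.6 FPKM in Bo and 15.1, 11.6 and 16.0 FPKM in La (0.69 ± 0.19, adjusted p = 0.343). Both did not overlap between the groups, yet neither passed the test.

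Of the 8 MADS-box transcripts, a family of flowering and meristem regulators, 7 had a positive difference and none was called, with a median of 0.82. The nearest to the threshold was a JOINTLESS-like transcript, XM_011024752.1, with 51.6, 37.4 and 25.2 FPKM in Bo and 5.33, 1.51 and 2.13 FPKM in La (3.35 ± 0.58, adjusted p = 0.0539). A second JOINTLESS-like transcript, XM_011024751.1, had 63.6, 53.6 and 61.9 FPKM in Bo and 18.6, 9.40 and 15.1 FPKM in La (2.03 ± 0.44, adjusted p = 0.180). In both, the lowest Bo library was above the highest La library. A list of floral organ identity and flowering genes held LFY, STK, PAN, INO, TT16 and SVP. The median of its 4 tested transcripts was 0.00, and none was called.

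Auxin response transcripts with a product name had a median of −0.98, and 4 of 13 had a positive difference. Auxin-induced protein 22E-like had 2.95, 2.99 and 2.26 FPKM in Bo and 20.2, 7.28 and 11.9 FPKM in La (−1.82 ± 0.42, adjusted p = 0.234). The auxin-induced protein 22D-like transcript had 15.2, 15.1 and 7.36 FPKM in Bo and 29.4, 28.9 and 27.2 FPKM in La (−1.19 ± 0.30, adjusted p = 0.286). In neither did the groups overlap. Of the 22 transcripts of 13 auxin genes chosen by symbol, 20 were tested and had a median of 0.11, and 11 of them had a positive difference. Neither auxin list held a called transcript.

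Product-named leaf polarity factors, with 3 tested, had a median of −0.76, with 1 positive, and none was called. The 26 tested transcripts of genes of leaf polarity and blade outgrowth, taken by symbol, had a median of 0.14, with 16 positive, and none was called. AGO7, of the small RNA pathway that limits auxin response factors on the upper side of the blade in Arabidopsis, had 25.5, 21.7 and 11.3 FPKM in Bo and 7.83, 7.78 and 7.81 FPKM in La (1.14 ± 0.34, adjusted p = 0.381). WOX1, which promotes blade outgrowth at the margin in Arabidopsis, had 5.76, 3.22 and 1.44 FPKM in Bo and 0.621, 1.36 and 0.506 FPKM in La (1.20 ± 0.39, adjusted p = 0.415). GRF3, a growth-regulating factor, had 16.2, 14.4 and 7.53 FPKM in Bo and 9.05, 5.93 and 3.66 FPKM in La (0.93 ± 0.36, adjusted p = 0.511). For AGO7 and WOX1 all Bo libraries were above all La libraries, with Bo3 the lowest Bo library in each. They were the only 2 of the 26 with this pattern, a share near the 7.79% over all mRNAs tested. Among 6 tested transcripts of meristem and leaf margin genes, the median was −0.26 and none was called. KNAT1, a meristem homeobox gene, had 2.24, 1.34 and 1.02 FPKM in Bo and 8.25, 2.53 and 8.21 FPKM in La (−1.43 ± 0.62, adjusted p = 0.566). CUC3, of organ boundaries, had 0.0747, 0.431 and 0.454 FPKM in Bo and 1.13, 0.979 and 0.843 FPKM in La (−0.60 ± 0.22, adjusted p = 0.479).

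Photosynthesis transcripts lay lower in Bo on balance but were not called. The 18 tested transcripts of 17 photosystem and light-harvesting genes had a median of −0.22, with 4 positive. The 10 product-named ones had a median of −0.59, with 1 positive. Rubisco activase, which keeps the carbon-fixing enzyme active, had 76.4, 70.4 and 60.8 FPKM in Bo and 143, 158 and 127 FPKM in La (−1.03 ± 0.26, adjusted p = 0.281).

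Dividing-cell genes gave opposite medians by product name and by symbol. Of the 48 transcripts of 26 DNA replication and mitosis genes chosen by symbol, 32 were tested and had a median of 0.27, with 24 positive. The 19 product-named ones had a median of −0.56, with 3 positive. No member of either list was called. The 11 dividing-cell markers (histones, condensin subunits, kinesins and a cyclin) summed to 391, 214 and 151 FPKM in Bo and 472, 476 and 149 FPKM in La, and to 424, 396 and 90.4 FPKM in Ov, so that the third library was the lowest of its group in Bo, La and Ov. Cytosolic ribosomal proteins, 37 transcripts, had a median of −0.26 and none was called. Product-named cell wall xyloglucan and pectin enzymes had a median of −0.99 over 8 tested transcripts, with pectate lyase P59 the only call. The 14 cell wall transcripts chosen by symbol had a median of −0.23, with GH9A4 the only call. In the other lists (aquaporins, defence, drought and abscisic acid, gibberellin, flavonoids, lignin, starch, jasmonate, stomata, clock and NDH complex), no transcript was called in either direction.

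**Figure D4:**
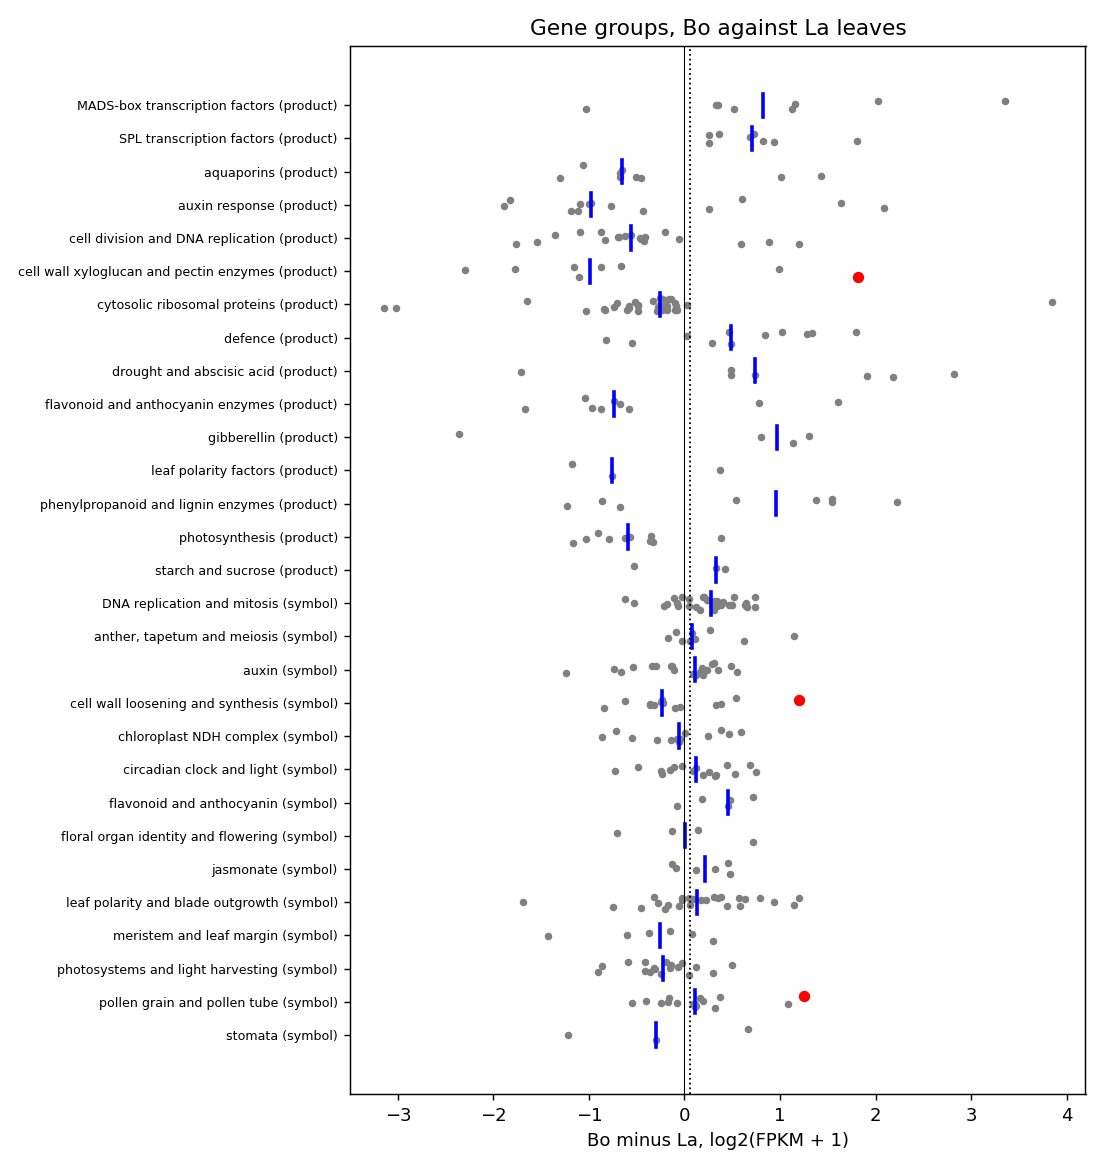
Each point is a tested transcript, with the Bo minus La difference on the log2(FPKM + 1) scale on the horizontal axis and the gene group on the vertical axis; red points had an adjusted p under 0.05, blue bars are group medians and the dotted line is the median of all mRNAs (0.06). The only red points are pectate lyase P59, GH9A4 and ATVEX1, and the medians of the 2 dividing-cell lists lie on opposite sides of 0 while both lists hold points on either side. Groups marked as product hold transcripts that the study kept for a steady change from Li to Bo, so their direction is not independent.

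Of the lncRNAs, 5 differed between Bo and La leaves (0.354% of those tested), 3 higher in Bo (0.212%) and 2 lower in Bo (0.142%). Before adjustment, 171 (12.1%) had p under 0.05, of which 128 were higher (9.06%) and 43 lower (3.04%). The median difference over all lncRNAs was 0.16, which an alternative scaling to a common upper quartile brought to 0.07. All Bo libraries lay above all La libraries for 168 lncRNAs (11.9%) and below them for 71 (5.02%).

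XR_843136.1 had 5.16, 5.04 and 4.75 FPKM in the Bo libraries and was under 0.001 FPKM in all 9 La, Ov and Li libraries (2.58 ± 0.18, adjusted p = 1.88e-05). Its values in those 9 were minute but above 0, with a La mean of 4.6e-25 FPKM. Absence from them is therefore not shown, since reads were divided among transcripts by an estimate. Its unadjusted p was 1.33e-08, against 8.29e-09 for the mRNA XM_011042175.1, and p-values were adjusted within each class. XR_841287.1 had 1.49, 1.11 and 0.749 FPKM in Bo and was listed at 0 in every La and Ov library, with 0.134 FPKM in Li1 (1.07 ± 0.18, adjusted p = 0.0432). TCONS_00064440, an intergenic transcript of 2 exons and 585 bases assembled by the authors on the minus strand of scaffold NW_011500517.1 from 93326 to 96210 in the PopEup_1.0 build, had 8.47, 11.2 and 2.85 FPKM in Bo and 0.519, 0.683 and 0.473 FPKM in La (2.29 ± 0.41, adjusted p = 0.0450). For all 3 the groups did not overlap.

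Of the pair that fell, XR_844356.1 had 0.942, 0.639 and 0 FPKM in Bo and 9.13, 11.3 and 9.12 FPKM in La (−2.88 ± 0.32, adjusted p = 0.00118). Its levels were 4.92 to 8.04 FPKM in Ov and 14.8 to 18.0 FPKM in Li, so that Bo was the lowest of the 4 leaf shapes. XR_843882.1 had 0, 0.142 and 0.361 FPKM in Bo and 7.14, 13.4 and 23.5 FPKM in La (−3.62 ± 0.66, adjusted p = 0.0450). It was high in Ov too, at 13.8 to 31.3 FPKM, and was at 4.86, 0 and 0.0234 FPKM in Li. Near the threshold, TCONS_00052792 had 6.05, 9.77 and 1.14 FPKM in Bo and 0, 0 and under 0.001 FPKM in La (2.45 ± 0.46, adjusted p = 0.0526). XR_840367.1 was listed at 0 in every Bo library and had 2.02, 13.0 and 8.11 FPKM in La (−2.86 ± 0.60, adjusted p = 0.0653). XR_842771.1, XR_841091.1 and XR_843408.1 had adjusted p between 0.0607 and 0.0934.

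**Figure D5:**
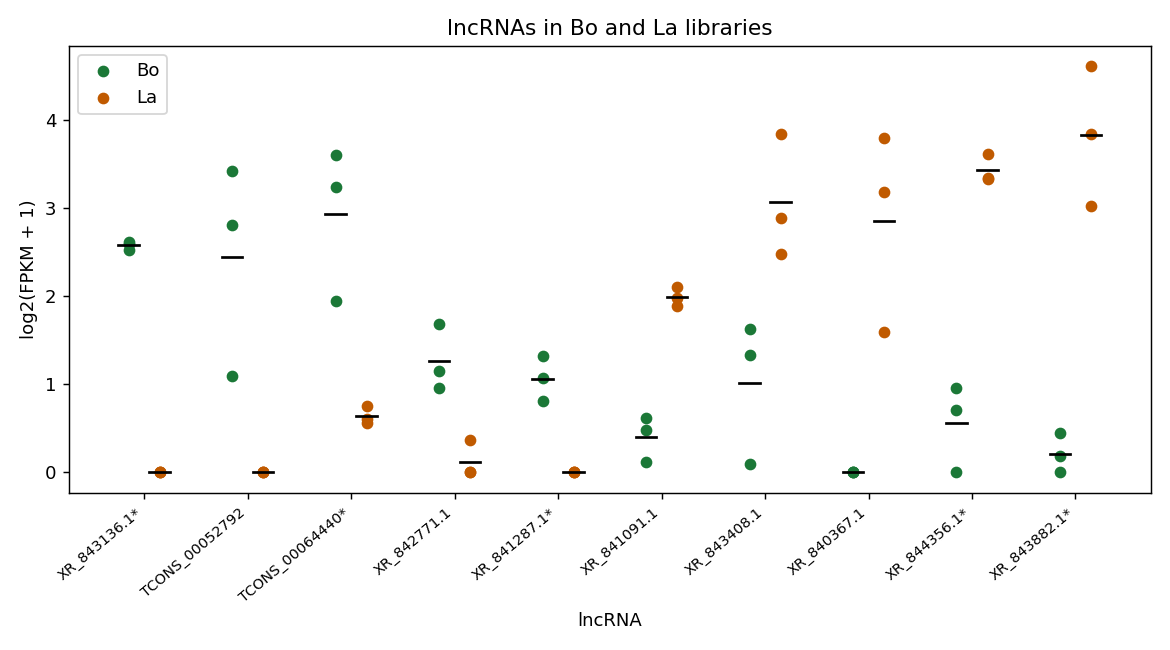
log2(FPKM + 1) of the 10 named lncRNAs in the 3 Bo (green) and 3 La (orange) libraries, with each bar at the mean of its 3 libraries; an asterisk marks the 5 with an adjusted p under 0.05. In all 10 the Bo points lie wholly above or wholly below the La points.

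More lncRNAs were above 0 in Bo libraries, with 2612, 2637 and 2606, against 2602, 2577 and 2562 in La libraries. The mean was 38.0 higher in Bo, and the exact two-sided permutation test over 20 splits gave p = 0.1, which is the smallest that 3 libraries against 3 allow. At 0.1 FPKM or more there were 1889, 1878 and 1899 in Bo and 1783, 1808 and 1784 in La (p = 0.1, exact). For mRNAs above 0 the counts were 46964, 47043 and 46517 in Bo and 46899, 46761 and 46477 in La (difference 129, p = 0.5, exact), and the groups overlapped.

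No circRNA passed the adjusted limma test between Bo and La leaves (0% of 231), and 31 (13.4%) had an unadjusted p under 0.05, of which 14 were higher (6.06%) and 17 lower in Bo (7.36%). The groups did not overlap for 6 circRNAs higher in Bo (2.6%) and 5 lower in Bo (2.16%). Read numbers were inferred from the steps of the RPM values and were not given by the authors. Most circRNAs rested on few reads, with a median of 2 junction reads per circRNA and library. Of the 231, 26 were above 0 in all 6 libraries, 17 in Bo libraries only and 31 in La libraries only. circRNA_0839 had 4, 3 and 3 junction reads in Bo1, Bo2 and Bo3 and 0 in every La, Ov and Li library (difference in log2 RPM 2.16 ± 0.50, adjusted p = 0.160). A count of 0 allows up to 3 reads in a library, for counting error only. Its call changed with the setting: with the filter at 3 of the 6 libraries it was called by limma (adjusted p = 0.0019), as it was without Bo1, Bo2, Bo3 or La3, and over all alternatives the adjusted p ran from 0.000259 to 0.626. It overlaps a WD repeat protein transcript, XM_011001732.1, whose own difference was 0.39 (adjusted p = 0.879). circRNA_0189 had 13, 26 and 0 junction reads in Bo and 0 in La, and its host transcript XM_011021004.1 differed by 0.50 (adjusted p = 0.857).

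Among circRNAs lower in Bo, the chloroplast circRNA_0003 had 0, 51 and 0 junction reads in Bo and 53, 39 and 32 in La, while every Ov and Li library had at least 29. Bo2 thus had as many as La, and the difference of −3.49 ± 1.23 had an adjusted p of 0.260. circRNA_0774, circRNA_0162, circRNA_0966 and circRNA_1126 were at 0 in all Bo libraries and above 0 in 2 of the 3 La libraries, with the same adjusted p. Bo libraries held 176, 188 and 182 circRNAs above 0 and La libraries 224, 184 and 281 (difference −47.7, p = 0.2, exact). Junction reads were 6071, 5028 and 3594 in Bo and 5001, 3421 and 6535 in La (difference −88.0, p = 1, exact). A single circRNA, circRNA_0974, took 3353, 2549 and 597 of the Bo reads and 2087, 978 and 2107 of the La reads. Neither measure separated the groups.

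The mRNA count depended on which libraries entered. Without Bo3 the same test called 563 mRNAs, 457 higher and 106 lower in Bo, among them 58 of the 60 and all 27 mRNAs named by size of difference. Without 1 of Bo1, Bo2, La1, La2 or La3 it called 30 to 35. With only the 6 Bo and La libraries in the fit it called 8, of which 4 were among the 60: XM_011016934.1, XM_011042175.1, XM_011008220.1 and XM_011027910.1, each with an adjusted p of 0.0388. For lncRNAs the test called 30 without Bo3, among them all 5, and between 2 and 6 without any 1 of the other libraries. For circRNAs it called 8 without Bo3, 8 without La3, and 0 to 2 without 1 of the others.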

How the data were processed

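The authors aligned strand-specific reads of ribosome-depleted total RNA to PopEup_1.0 transcripts with Bowtie2 and deposited FPKM per transcript for mRNAs and lncRNAs, after dividing reads among transcripts with eXpress. For circRNAs the deposited RPM values, from CIRI junction calls, were, to within 0.01, whole multiples of a step at which each library's smallest value stands for 2 reads. The junction reads printed are inferred from this step, whose scale of 2 was not given by the sources, and no count test was run on them. The depth behind the FPKM values is unknown, and counting limits cover counting error only.

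limma 3.58.1 in R 4.3.3 fitted 4 group means over all 12 libraries, with a trend of spread on level, to log2(FPKM + 1) or to log2(RPM + 0.0116). Calls were made below an adjusted p of 0.05. The fit was tested on simulated data. Library-level counts were compared by exact two-sided permutation.

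Named were the 15 mRNAs called higher and up to 15 called lower with the largest differences, 1 transcript per gene, all called lncRNAs and others by p up to 5 a direction, and the 5 circRNAs with the smallest p in each direction. For gene groups, members with the smallest p were named. Members and lists were chosen with earlier results of these data known. Symbols and products came from RefSeq and the study's product names; the products of most mRNAs are not given in the sources used here. Values under 0.001 FPKM are given as such. Some were minute but above 0, as for XM_011032122.1 in Bo (mean 1.6e-14 FPKM) and XM_011016934.1 in La (mean 2.35e-18 FPKM). As reads were divided among transcripts by an estimate, such a value need not mean that the RNA was absent. Whether reads were shared with transcripts of other genes was not tested.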

Additional observations from a re-analysis of the deposited data

How the results depend on the processing

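The limits lie in 3 libraries a group, in unknown depth for FPKM, in the split of reads among transcripts, and in Bo3, which stood apart. For the 60 mRNAs called, a pseudocount of 0.1 gave 19, no filter on low values 143, the 6 Bo and La libraries alone 8, and an unadjusted p under 0.05 gave 2751. Leaving out 1 library gave 30 to 563. With the 6 libraries and without Bo3, a setting chosen after seeing the data, 270 mRNAs and 15 lncRNAs were called. For the 5 lncRNAs, 3 were called with no filter and with the 6 libraries alone, 2 with the filter over 12 libraries, with scaling to a common upper quartile and with no trend, and 171 at an unadjusted p under 0.05, and leaving out 1 library gave 2 to 30. For circRNAs, a filter of at least 3 of the 6 libraries gave 1 call (circRNA_0839, adjusted p = 0.0019 by limma), an unadjusted p under 0.05 gave 31, and leaving out 1 library gave 0 to 8. Junction reads per library, Bo minus La, ran from −870 to 687 when 1 library was left out, with 564 without Bo3 and 687 without La3, against −88.0 with all; the cause was not tested. The differences in circRNAs, lncRNAs and mRNAs above 0 ran from −70.5 to −22.0, from 28.7 to 48.8 and from 11.3 to 291. For the named RNAs no alternative turned a direction: for called mRNAs 427 values stayed under an adjusted p of 0.05 and 193 did not, and for called lncRNAs 61 did and 50 did not. The planned count test on circRNA reads was not run, because these reads are inferred.

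The labels number the libraries 1 to 3 in each group. Deviations of same-numbered Bo and La libraries correlated across mRNAs at 0.136, −0.0227 and 0.156, and Bo2 correlated best with La1 (0.0603). The values of 0.136 and 0.156 were the highest of all pairs of a Bo and a La library. All were weak and each group has 3 libraries, so the correlations cannot decide whether the numbers pair the libraries. With the replicate number as a block, 45 mRNAs and 3 lncRNAs were called over 12 libraries, and 0 mRNAs and 0 lncRNAs over the 6.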
